A study of Rattus norvegicus with 10 samples.

Results

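In the rat brain transcriptome, 8 loci were examined, each holding a long noncoding RNA (lncRNA) that the study carried forward to PCR and at least 1 further lncRNA isoform assembled from the same reads. The 8 PCR-tested transcripts are TCONS_00012358, TCONS_00056796, TCONS_00078206, TCONS_00092323, TCONS_00113701, TCONS_00034914, TCONS_00039914 and TCONS_00052245. Every assembled lncRNA whose span overlapped one of them on the same chromosome and strand was joined to its locus. This gave 38 other isoforms and 46 transcripts in 8 loci, out of 1924 assembled lncRNAs in 676 loci and 32166 transcripts in the whole expression table. Joining by overlapping exons in place of spans gave the same isoforms in all 8 loci. The study reports that PCR in another cohort of paired brains verified the presence and expression patterns of the PCR-tested lncRNAs. Those PCR values are not part of the data used here.

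LncRNAs are long transcripts without evident coding potential, and several of them are known to act in chromatin regulation, in scaffolding proteins or in binding microRNAs. The study removed transcripts of a single exon, so those examined here are spliced. One locus can give isoforms that differ in the first exon, in the last exon, or in an intron that is kept or removed. Reads from exons that isoforms share cannot be assigned to one of them directly, and Cufflinks divides such reads by a likelihood model. A level reported for one isoform is therefore partly an estimate of that division, whereas the sum over a locus depends on it less.

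The libraries came from male Sprague Dawley rats in which the middle cerebral artery had been closed with a suture for 2 h (MCAO, a model of focal ischemic stroke) and which were sacrificed 24 h after MCAO. Brain tissue of both sides of 5 rats (P45, P52, P61, P71 and P72) was sequenced, giving 5 left and 5 right libraries, and the age of the rats was not given in the sources used here. No sham-operated rat entered these libraries, so the control is the opposite side of the same operated brain, from rats chosen by the study for one deficit score. The labels give only the side. The right side was taken as ischemic and the left as paired nonischemic because in the study's drawing the suture lies in the right artery, and because a lncRNA that it calls upregulated has a left-to-right ratio in favour of the right. Its methods score the deficit by the right paw and by circling rightwards, as a left lesion would give, and if the sides were exchanged each sign below would flip. The labelled tissue could not be checked against cell type markers, since the transcript identifiers of the expression table were not matched to gene symbols here.

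Levels are FPKM, fragment numbers scaled by transcript length and library size, as deposited for each transcript and library, and are given as mean ± SD over 5 rats. Read counts are not part of these values. Relative depth, estimated from the commonest ratio of low values between libraries, was 63.4% to 100% of the deepest library on the nonischemic side (median 92.7%) and 59.7% to 81.3% on the ischemic side (median 72%), and it was lower on the ischemic side in 4 of 5 rats (mean log2 difference −0.28, p = 0.125 in an exact two-sided permutation test that flips signs within rats). The part of depth in the differences given below was tested only by adding it to the model as a covariate. With it, 0 of 20936 transcripts had an adjusted p under 0.05 in limma, while 2560 had an unadjusted p under 0.05. Its log2 changes were −0.91 in place of −2.67 for TCONS_00078206 and −0.23 in place of −1.47 for TCONS_00034914. They were −1.24 in place of −1.96 for TCONS_00113701 and 0.88 in place of 1.45 for TCONS_00012358. Larger were −3.98 in place of −2.10 for TCONS_00092323, −2.89 in place of −1.79 for TCONS_00039914 and −3.19 in place of −2.50 for TCONS_00052245. TCONS_00056796 had −1.80 in place of −1.76. Because depth partly followed side, the covariate cannot separate depth from side, and nothing is concluded from the lost calls. Changes are log2 differences of FPKM + 0.1 between ischemic and nonischemic sides, from limma with the animal as a block. A change was called at a Benjamini-Hochberg adjusted p under 0.05 over the whole table. The added 0.1 makes changes of weakly expressed transcripts look smaller than they are.

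The 8 loci lie on 8 chromosomes of rn5 and differ in how far their isoforms share exons. TCONS_00012358 (chromosome 1, minus strand, 52790817 to 52794934, 2 exons, 2048 nt) has 1 other isoform, TCONS_00009780, and has the largest stretch of its own among the 8, with 676 nt (33.0%) found in no other isoform. TCONS_00056796 (chromosome 2, minus strand, 95990222 to 96032483, 3 exons, 3713 nt) lies in a locus of 4 transcripts. It is contained in TCONS_00056797, and differs from it by an intron that splits the 5641 nt exon of that isoform into exons of 2890 and 404 nt. The locus of TCONS_00078206 (chromosome 4, minus strand, 197492444 to 197497188, 5 exons, 2273 nt) is the most divided, with 13 transcripts. None of its bases and none of its exon junctions is unique to it, and it shares 97.4% of their joint bases with TCONS_00080755.

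TCONS_00092323 (chromosome 6, minus strand, 62067451 to 62073508, 3 exons, 4567 nt) is 1 of 6 transcripts and shares an exon of 2364 nt and 90.5% of the joint bases with TCONS_00090185. Among 5 transcripts on chromosome X, TCONS_00113701 (plus strand, 64568462 to 64573078, 4 exons, 2608 nt) has 109 nt (4.18%) of its own. TCONS_00034914 (chromosome 14, plus strand, 6768874 to 6785697, 4 exons, 3204 nt) is 1 of 8 and has no base of its own. TCONS_00039914 (chromosome 15, minus strand, 108354106 to 108356933, 2 exons, 2762 nt) is 1 of 5, with 101 nt (3.66%) of its own. TCONS_00052245 (chromosome 19, plus strand, 33824687 to 33831013, 4 exons, 3937 nt) is 1 of 3, with 219 nt (5.56%) of its own. Apart from TCONS_00078206, each of the 8 has 1 exon junction that no other isoform of its locus uses. For TCONS_00056796, TCONS_00092323 and TCONS_00034914, which have no base of their own, that junction is the only part they do not share.

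**Figure D1:**
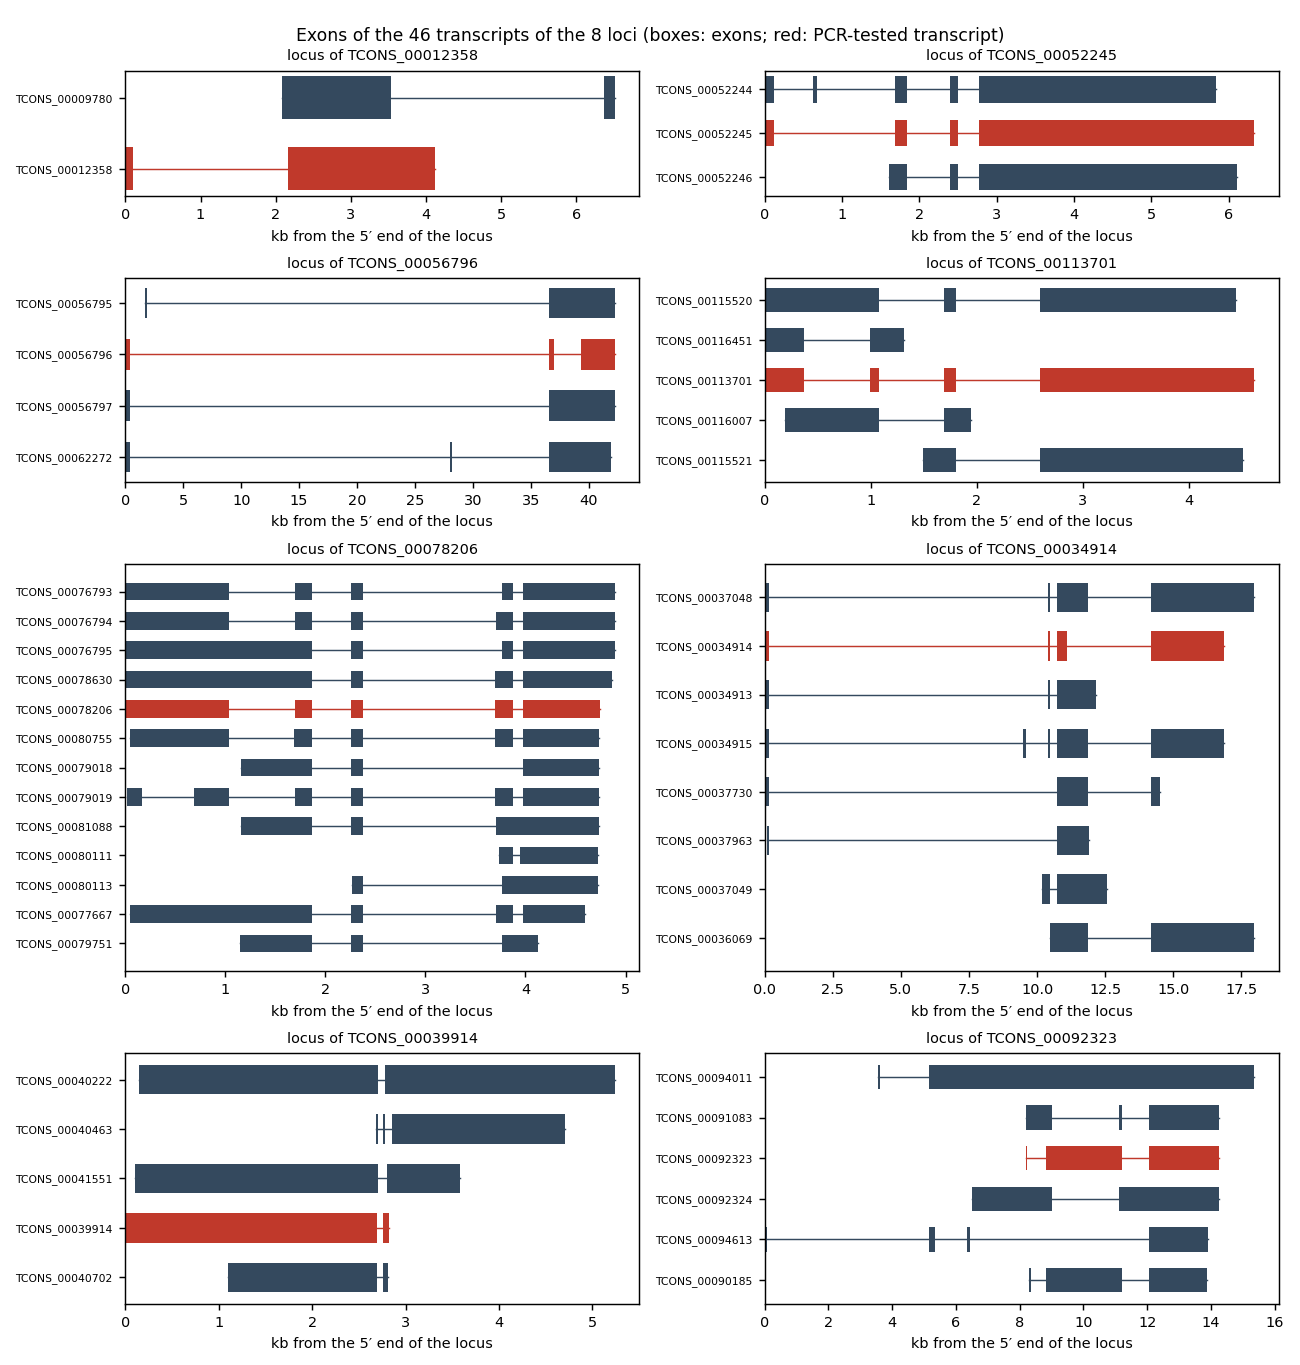
Exon structure of the 46 transcripts of the 8 loci, 1 panel per locus, with the distance in kb from the 5′ end of the locus on the horizontal axis, boxes for exons and lines for introns. The PCR-tested transcript (red) shares its large exons with other isoforms (dark blue) in each of the 8 panels, and the locus of TCONS_00078206 is the fullest, with 13 transcripts.

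One of the 8, TCONS_00012358, was higher on the ischemic side and the other 7 were lower on average. A single transcript of the 8, TCONS_00113701, passed the adjusted threshold (called in this fit: 7.71% of all 20936 transcripts tested, 2.19% in the lower direction, and 1.47% of the 1696 assembled lncRNAs tested, 0.649% in the lower direction). The median change of the 8 was −1.87, against −0.16 over the assembled lncRNAs and −0.01 over all transcripts tested. The study describes PCR of lncRNAs that it had found changed by a paired test on these libraries. Its list of the most changed lncRNAs names none of these 8, so how they were selected is not clear. They may have been selected on the same libraries, so their direction is not taken as independent evidence. Nothing is read from that count or median. In 6 of the 8 the change had the same direction in 5 of 5 rats (of all assembled lncRNAs tested, 6.60% were lower and 4.36% higher in 5 of 5 rats). In 4 of the 8, the 5 ischemic values did not overlap the 5 nonischemic ones (1.24% of assembled lncRNAs were separated in the higher direction and 1% in the lower). In tissue of this kind fewer cells of a type and less RNA per cell cannot be told apart.

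**Figure D2:**
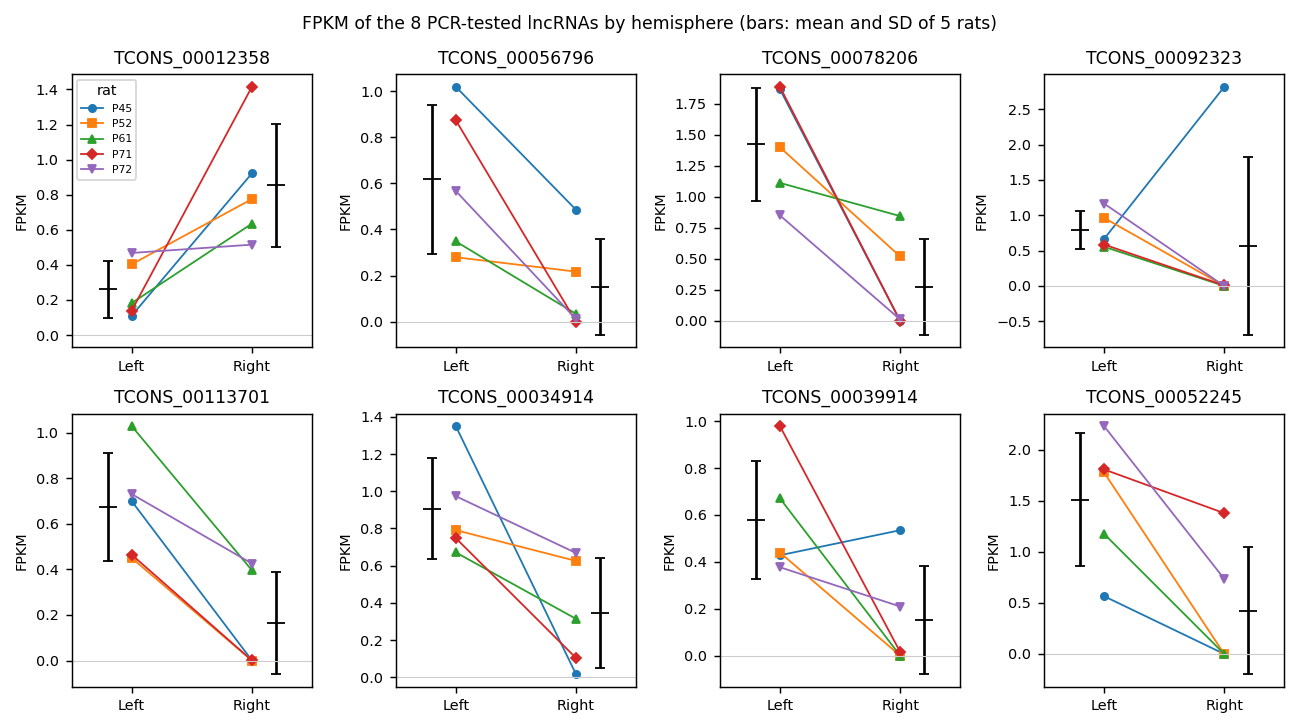
FPKM of the 8 PCR-tested lncRNAs in the left (nonischemic) and right (ischemic) side of each rat, 1 line per rat and 1 panel per transcript, with the mean and SD of 5 rats as bars at the sides. TCONS_00012358 is higher on the right in each of the 5 lines, and in the other 7 panels the lines fall, with the exception of P45 for TCONS_00092323 (0.664 to 2.82 FPKM) and for TCONS_00039914 (0.428 to 0.535 FPKM).

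TCONS_00012358 was the one transcript of the 8 with more RNA on the ischemic side. Its nonischemic FPKM were 0.110 in P45, 0.403 in P52, 0.182 in P61, 0.139 in P71 and 0.468 in P72, and its ischemic FPKM were 0.922, 0.775, 0.635, 1.42 and 0.515 in the same rats. The sides did not overlap, although in P72 the difference was only 0.12 on the log2 scale. The mean went from 0.261 ± 0.163 to 0.852 ± 0.349 FPKM, which is 1.45 ± 0.44 (standard error) on the log2 scale (adjusted p = 0.0967 in limma).

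Its only companion, TCONS_00009780, overlaps it over 1372 nt, begins in the intron just upstream of its last exon and continues to a further exon downstream. TCONS_00009780 was at 0.304 ± 0.272 FPKM on the nonischemic and 0.479 ± 0.373 FPKM on the ischemic side, higher in 4 of 5 rats (log2 change 0.60, standard error 0.37, adjusted p = 0.353 in limma). In P72 its nonischemic value was below 0.001 FPKM. The sum of both isoforms was higher on the ischemic side in 5 of 5 rats, from 0.565 ± 0.205 to 1.33 ± 0.573 FPKM (log2 change 1.08, standard error 0.26, adjusted p = 0.0535 in limma). TCONS_00012358 made up 50.4% ± 34.2 of the sum on the nonischemic side and 66.8% ± 17.5 on the ischemic side, a mean difference of 16.4 percentage points that went the same way in 4 of 5 rats. TCONS_00009780 had the higher level of the pair in 3 of 5 nonischemic libraries and TCONS_00012358 in 4 of 5 ischemic ones.

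TCONS_00113701, the one transcript of the 8 that passed the threshold, fell while the total of its locus did not pass. On the nonischemic side its FPKM were 0.70 in P45, 0.450 in P52, 1.03 in P61, 0.465 in P71 and 0.731 in P72. On the ischemic side P61 had 0.396 and P72 had 0.426 FPKM, and P45, P52 and P71 were each below 0.001 FPKM. The 2 sides did not overlap, and 3 of the 5 ischemic libraries assigned almost nothing to this isoform. On average it went from 0.675 ± 0.237 to 0.165 ± 0.225 FPKM (log2 change −1.96, standard error 0.44, adjusted p = 0.0467 in limma). The adjusted p was 0.110 to 0.165 with any one of P45, P52, P61 or P71 left out, and 0.0394 without P72.

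The summed level of the X-linked locus was 1.53 ± 0.522 FPKM on the nonischemic and 1.63 ± 1.08 FPKM on the ischemic side (log2 change −0.05, standard error 0.25, adjusted p = 0.929 in limma), lower in 3 of 5 rats. The ischemic sum of P71, at 3.49 FPKM, lay far above the others, which ran from 0.862 to 1.53. The other 4 isoforms together were higher on the ischemic side in 4 of 5 rats, from 0.856 ± 0.566 to 1.46 ± 1.2 FPKM (log2 change 0.58, adjusted p = 0.291 in limma). TCONS_00115521, which begins in a later first exon and shares the last exon, was the most abundant of these. It was at 0.189 ± 0.222 FPKM on the nonischemic and 0.546 ± 0.539 FPKM on the ischemic side, higher in 4 of 5 rats (log2 change 1.01, standard error 0.48, adjusted p = 0.234 in limma).

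The share of TCONS_00113701 in its locus was the only one of the 8 that moved the same way in every rat. Some other isoforms did so too: TCONS_00115521 of the same locus (higher), and TCONS_00079019 and TCONS_00040463 of other loci (lower). The share of TCONS_00113701 was 67.2% in P45, 40.2% in P52, 56.4% in P61, 20.3% in P71 and 53.0% in P72 on the nonischemic side. On the ischemic side it was below 0.1% in P45, P52 and P71, 29.0% in P61 and 49.4% in P72. Its mean moved from 47.4% ± 17.9 to 15.7% ± 22.6, a difference of −31.7 percentage points (p = 0.0625 in the exact permutation test, the smallest that 5 rats allow, and 0.333 after Benjamini-Hochberg adjustment over the 8). Its change relative to the locus, the log2 ratio of transcript to locus sum with 0.1 FPKM added to each, was −1.91 (unadjusted p = 0.0103, adjusted p = 0.787 in limma). The leading isoform of this locus varied among rats, with 3 different leaders in the 5 nonischemic libraries and 4 in the 5 ischemic ones.

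In the locus of TCONS_00052245 on chromosome 19 the locus sum fell. The summed nonischemic FPKM were 3.22 in P45, 3.03 in P52, 2.18 in P61, 3.27 in P71 and 3.27 in P72. The ischemic sums were 0.71, 0.534, 0.334, 1.96 and 1.34 FPKM in the same rats. Every ischemic sum lay below every nonischemic sum, with the 2 highest ischemic sums in P71 and P72. Averaged over 5 rats it went from 2.99 ± 0.464 to 0.977 ± 0.668 FPKM (log2 change −1.73, standard error 0.31, adjusted p = 0.0225 in limma), and this was the only call among the 8 locus sums (in this fit 8.40% of all 19916 features tested and 3.25% of the 676 locus sums were called, 1.48% of locus sums in the lower direction). Of all locus sums, 1.33% were separated in the lower direction and 3.11% in the higher. The sum was lower in 5 of 5 rats for 3 of the 8 loci (TCONS_00052245, TCONS_00034914 and TCONS_00092323) and higher in 5 of 5 for 1 (TCONS_00012358), beside 7.99% and 6.80% of all locus sums. The call was kept without P71 (adjusted p = 0.0276) or P72 (adjusted p = 0.0336) and was lost without P45 (0.102), P52 (0.0744) or P61 (0.0809).

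TCONS_00052245 itself had 0.566 FPKM in P45, 1.78 in P52, 1.18 in P61, 1.81 in P71 and 2.23 in P72 on the nonischemic side. Its ischemic value was below 0.001 FPKM in P45, P52 and P61, 1.38 in P71 and 0.735 in P72. It was lower in 5 of 5 rats, but the sides overlapped because P45 was low on the nonischemic side and P71 high on the ischemic side. The mean went from 1.51 ± 0.648 to 0.422 ± 0.621 FPKM (log2 change −2.50, standard error 0.60, adjusted p = 0.0549 in limma).

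The other isoforms of this locus, TCONS_00052244 with an added exon of 49 nt and TCONS_00052246 with a later first exon, fell as a sum. They went from 1.48 ± 0.680 to 0.554 ± 0.139 FPKM together, lower in 5 of 5 rats (log2 change −1.22, standard error 0.25, adjusted p = 0.0380 in limma), the only call among the 8 sums of other isoforms (7.31% of all features and 1.09% of the 1561 sums of other isoforms were called, 0.833% in the lower direction). That call was lost with any of P45, P52, P61 or P71 left out (adjusted p = 0.0882 to 0.159). TCONS_00052244 alone was at 0.977 ± 0.772 and 0.283 ± 0.220 FPKM (log2 change −1.21, standard error 0.78, adjusted p = 0.373 in limma). TCONS_00052245 led its locus in 4 nonischemic and 2 ischemic libraries, and its share was 50.7% ± 19.4 and 25.0% ± 34.6.

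The locus of TCONS_00092323 on chromosome 6 held the most RNA of the 8, with a sum of 15.4 ± 4.22 FPKM on the nonischemic and 9.01 ± 2.78 FPKM on the ischemic side. The sum was lower in 5 of 5 rats (log2 change −0.78, standard error 0.20, adjusted p = 0.0645 in limma), and without P72 the change was −0.93 with an adjusted p of 0.0436. TCONS_00094613, an isoform whose first exons lie upstream, led in 4 of 5 libraries of each side. It was at 6.89 ± 3.28 and 3.34 ± 1.29 FPKM (log2 change −0.95, standard error 0.30, adjusted p = 0.102 in limma). TCONS_00092323 was a minor isoform, with 5.79% ± 3.56 of the locus sum on the nonischemic and 4.45% ± 9.88 on the ischemic side.

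The level of TCONS_00092323 turned on one library. Its nonischemic FPKM were 0.664 in P45, 0.964 in P52, 0.555 in P61, 0.587 in P71 and 1.17 in P72. Its ischemic FPKM were 2.82 in P45 and at most 0.00801 in the other 4 rats. P45 thus had the highest value of all 10 libraries on the side where the other rats had almost none, and its ischemic library was also the least deep (59.7%), whose part in this was not tested. The log2 change was −2.10 with P45 (standard error 0.84, adjusted p = 0.171 in limma) and −3.11 without it (adjusted p = 0.0376).

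TCONS_00090185, which shares the 2364 nt exon, had the reverse values in P45. Its nonischemic FPKM ran from 2.77 to 4.48, and its ischemic FPKM were 0.151 in P45 and 1.92 to 3.41 in the other rats. The sum of both transcripts was lower in 5 of 5 rats and showed no exceptional library. It was 3.74 to 5.15 FPKM on the nonischemic side (4.42 ± 0.506) and 1.92 to 3.41 FPKM on the ischemic side (2.61 ± 0.626), with a mean log2 difference of −0.76 and a range over rats of −1.15 to −0.33. This pair was summed after its values had been seen, so no test is given. The same sum with the closest isoform was below 0.001 FPKM in single ischemic libraries at other loci, in P45 and P71 for TCONS_00078206, in P71 for TCONS_00113701, in P52 for TCONS_00039914 and in P61 for TCONS_00052245.

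**Figure D3:**
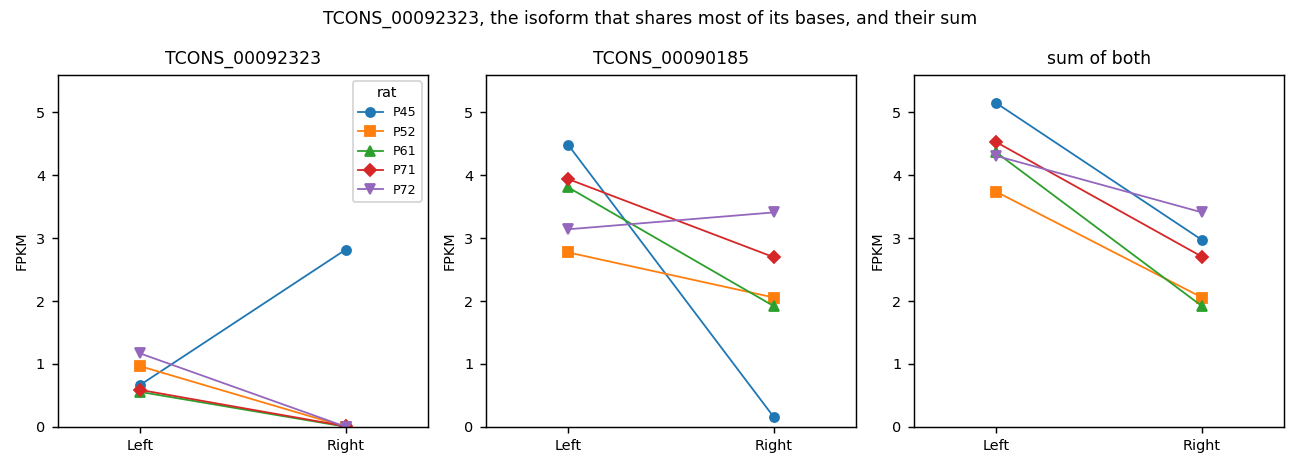
FPKM of TCONS_00092323, of TCONS_00090185 and of their sum in the left (nonischemic) and right (ischemic) side of each rat, 1 line per rat. The P45 line rises to 2.82 FPKM in the first panel and drops to 0.151 FPKM in the second, whereas in the sum the 5 right values (1.92 to 3.41) lie below the 5 left values (3.74 to 5.15).

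The remaining isoforms of this locus were less abundant than TCONS_00094613 and TCONS_00090185, and none passed the threshold. Their means were above those of TCONS_00092323 on each side (0.787 and 0.566 FPKM). TCONS_00091083 was at 3.07 FPKM on the ischemic side of P45 and at 0.102 to 0.542 FPKM in the other ischemic libraries. TCONS_00094011, made almost wholly of an exon of 10183 nt, was at 1.5 ± 0.320 and 1.13 ± 0.459 FPKM (log2 change −0.46, adjusted p = 0.364 in limma). TCONS_00092324 was at 1.53 ± 0.337 and 1.08 ± 0.534 FPKM (log2 change −0.57, adjusted p = 0.385 in limma).

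TCONS_00056796 was a minor isoform of the chromosome 2 locus, which was led by TCONS_00056797 in 5 nonischemic and 4 ischemic libraries. On the nonischemic side its FPKM were 1.02 in P45, 0.280 in P52, 0.348 in P61, 0.874 in P71 and 0.567 in P72. Its ischemic FPKM were 0.485, 0.217, 0.0336, below 0.001 and 0.0109 in the same rats. It was lower in 5 of 5 rats, and the sides overlapped because P45 on the ischemic side exceeded P52 and P61 on the nonischemic side. On average it went from 0.618 ± 0.323 to 0.149 ± 0.208 FPKM (log2 change −1.76, standard error 0.51, adjusted p = 0.0858 in limma).

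TCONS_00056797, which keeps the intron that TCONS_00056796 removes, was at 2.07 ± 0.375 and 0.924 ± 0.490 FPKM and was lower in 4 of 5 rats (log2 change −1.24, standard error 0.38, adjusted p = 0.0984 in limma). The rat without a decrease was P72, with 1.45 FPKM on each side. The locus sum was 2.83 ± 0.701 and 1.46 ± 0.70 FPKM, lower in 4 of 5 rats (log2 change −1.02, standard error 0.35, adjusted p = 0.122 in limma). In P72 the sum was slightly higher on the ischemic side, where the minor isoforms TCONS_00056795 and TCONS_00062272 were at 0.312 and 0.477 FPKM after values below 0.001 on the nonischemic side. The share of TCONS_00056796 was 21.3% ± 8.24 and 12% ± 17.9, and it was lower in 4 of 5 rats. In P45 it was 43.2% on the ischemic side, against at most 10.4% in the other ischemic libraries.

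On chromosome 14, TCONS_00034914 and the sum of its other isoforms were both lower in 5 of 5 rats. TCONS_00034914 had 1.35 FPKM in P45, 0.791 in P52, 0.671 in P61, 0.748 in P71 and 0.974 in P72 on the nonischemic side and 0.0163, 0.626, 0.314, 0.104 and 0.668 FPKM on the ischemic side. Each rat was lower on the ischemic side and the sides did not overlap, although the highest ischemic value, in P72, came within 0.01 FPKM of the lowest nonischemic one, in P61. Its mean moved from 0.907 ± 0.272 to 0.346 ± 0.296 FPKM (log2 change −1.47, standard error 0.54, adjusted p = 0.145 in limma). The other 7 isoforms together went from 3.34 ± 0.810 to 1.56 ± 0.843 FPKM (log2 change −1.20, adjusted p = 0.126 in limma). The locus sum was 4.25 ± 0.926 and 1.90 ± 1.06 FPKM, also lower in 5 of 5 rats (log2 change −1.26, standard error 0.37, adjusted p = 0.0838 in limma).

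Of those 7 isoforms, TCONS_00037730 fell. It skips the 63 nt second exon and ends after 316 nt of the last exon. Its nonischemic FPKM were 0.790 in P45, 1.09 in P52, 0.415 in P61, 1.4 in P71 and 1.42 in P72, and its ischemic FPKM were 0.271, 0.00812, 0.0411, 0.472 and 0.587. The sides overlapped only through the low nonischemic value of P61. Averaged over 5 rats it went from 1.02 ± 0.427 to 0.276 ± 0.256 FPKM (log2 change −1.83, standard error 0.42, adjusted p = 0.0476 in limma). The call was lost with any rat left out (adjusted p = 0.0606 to 0.137) and with the depth covariate (0.320). TCONS_00034913, the most abundant other isoform, was at 1.15 ± 0.613 and 0.486 ± 0.417 FPKM (log2 change −1.16, adjusted p = 0.183 in limma), and its ischemic value in P72 (1.21 FPKM) lay above the other 4 (0.206 to 0.427 FPKM). The share of TCONS_00034914 was 21.8% ± 5.73 and 18.7% ± 15.1, and the leading isoform changed between libraries, with 4 different leaders on the ischemic side.

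The chromosome 4 locus divided its reads among 13 transcripts. On the nonischemic side the FPKM of TCONS_00078206 alone were 1.87 in P45, 1.4 in P52, 1.11 in P61, 1.89 in P71 and 0.851 in P72. Its ischemic FPKM were below 0.001 in P45 and P71, 0.520 in P52, 0.846 in P61 and 0.0122 in P72. Each rat was lower on the ischemic side and the sides did not overlap, by a margin of less than 0.01 FPKM between P61 and P72. The mean went from 1.42 ± 0.458 to 0.276 ± 0.389 FPKM (log2 change −2.67, standard error 0.67, adjusted p = 0.0606 in limma).

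The sum of this locus changed less. It was 5.80 ± 0.986 FPKM on the nonischemic and 3.65 ± 0.893 FPKM on the ischemic side, lower in 4 of 5 rats, with P52 at 5.07 and 5.08 FPKM (log2 change −0.67, standard error 0.21, adjusted p = 0.0973 in limma). The other 12 isoforms together were at 4.37 ± 1.10 and 3.37 ± 0.940 FPKM (log2 change −0.37, adjusted p = 0.414 in limma). TCONS_00076795, the most abundant of them, which keeps an intron between the first exons, was lower in 5 of 5 rats, at 1.31 ± 0.835 and 0.616 ± 0.428 FPKM (log2 change −0.99, standard error 0.27, adjusted p = 0.0725 in limma).

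TCONS_00079019, which removes part of the first exon as an added intron, fell. It was at 0.205 to 0.648 FPKM on the nonischemic side, at 0.113 FPKM on the ischemic side of P52 and below 0.001 FPKM in the other 4 ischemic libraries (log2 change −2.20, standard error 0.38, adjusted p = 0.0225 in limma). The call was lost without P45, P52, P61 or P71 (adjusted p = 0.0614 to 0.0890) and with the depth covariate (0.250). In the opposite direction, TCONS_00078630 was at 1.02 FPKM on the ischemic side of P52 and 0.241 FPKM on that of P72, and at most 0.0739 FPKM in the other 8 libraries (log2 change 0.89, adjusted p = 0.363 in limma). The share of TCONS_00078206 was 25.3% ± 9.54 and 7.91% ± 12.5, lower in 4 of 5 rats and higher in P61 (20.4% and 28.9%). Its change relative to the locus was −2.0 (unadjusted p = 0.0239, adjusted p = 0.787 in limma).

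TCONS_00039914 on chromosome 15 was lower in 4 of 5 rats. Its nonischemic FPKM were 0.428 in P45, 0.440 in P52, 0.671 in P61, 0.979 in P71 and 0.377 in P72. Its ischemic FPKM were 0.535 in P45, below 0.001 in P52 and P61, 0.0159 in P71 and 0.210 in P72. P45 was the exception, with more on the ischemic side, and the sides overlapped through it. On average it went from 0.579 ± 0.251 to 0.152 ± 0.232 FPKM (log2 change −1.79, standard error 0.60, adjusted p = 0.120 in limma).

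The locus sum was 2.09 ± 0.927 and 1.34 ± 0.440 FPKM (log2 change −0.57, standard error 0.31, adjusted p = 0.285 in limma), lower in 4 of 5 rats. TCONS_00040463, most of whose length lies in an exon downstream of TCONS_00039914, led 4 of 5 nonischemic libraries and was lower in 5 of 5 rats, at 0.713 ± 0.263 and 0.279 ± 0.209 FPKM (log2 change −1.18, standard error 0.38, adjusted p = 0.110 in limma). TCONS_00040702, a shorter form spliced at nearly the same place as TCONS_00039914, was higher on the ischemic side in 4 of 5 rats, at 0.287 ± 0.208 and 0.361 ± 0.296 FPKM (log2 change 0.19, adjusted p = 0.755 in limma). In P52, TCONS_00040702 was at 0.817 FPKM on the ischemic side, where TCONS_00039914 was below 0.001. The share of TCONS_00039914 was 28.5% ± 5.79 and 10.9% ± 15.9, with a change relative to the locus of −1.22 (unadjusted p = 0.0388, adjusted p = 0.807 in limma).

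**Figure D4:**
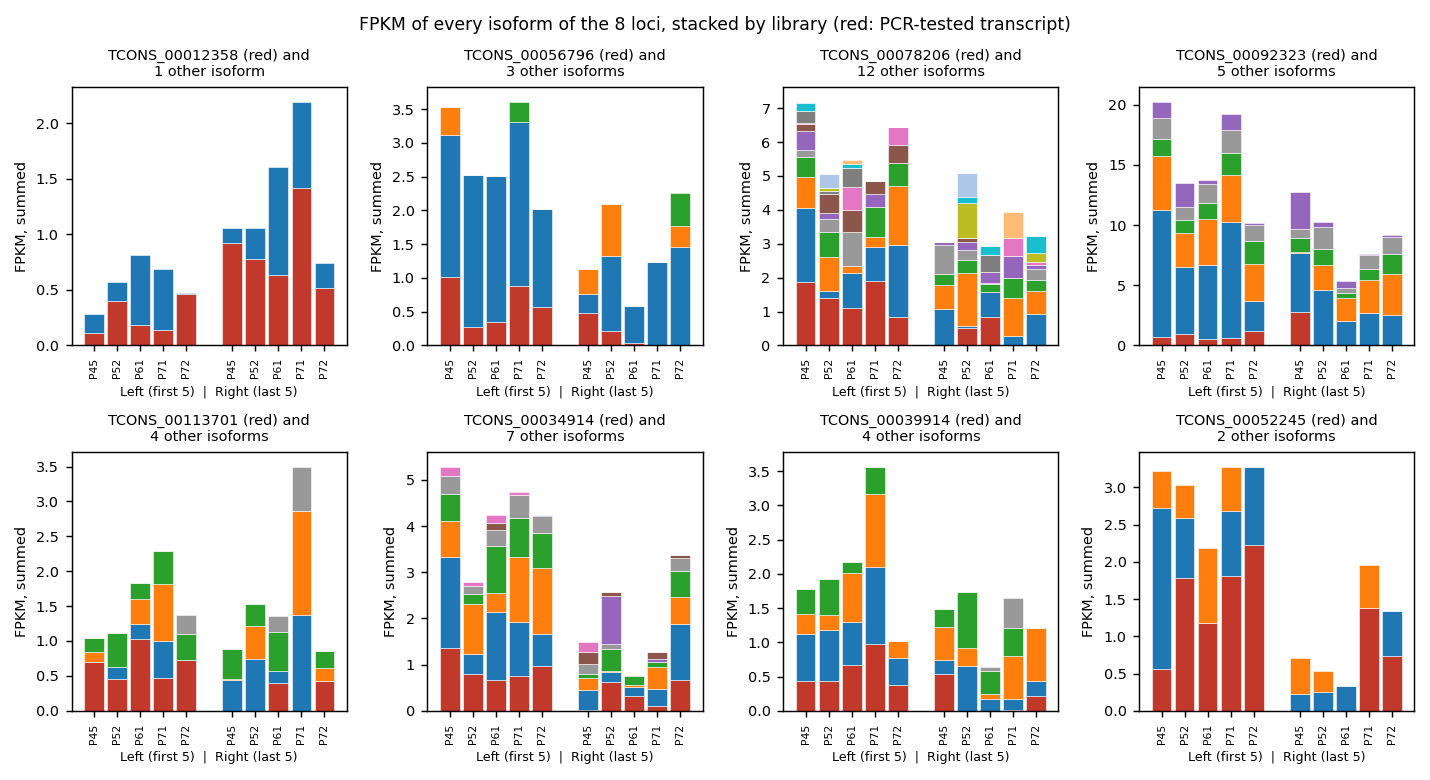
FPKM of every isoform of each of the 8 loci, stacked so that a bar is the locus sum of one library, left (nonischemic) libraries first and right (ischemic) libraries second, with the PCR-tested transcript in red at the base and other isoforms in other colours. Relative to its mean, the red part varies more among right libraries than the whole bar in 7 of 8 loci (coefficient of variation). The bars of TCONS_00052245 are lower in each right library than in any left one.

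Across the 8 loci the isoform was less stable among rats than its locus. The coefficient of variation among the 5 rats of a side was higher for the PCR-tested transcript than for its locus sum in 7 of 8 loci on each side. On the ischemic side its median was 140% for the transcripts (41.0% to 223%) and 45.6% for the locus sums (24.5% to 68.4%), and on the nonischemic side 39.0% (29.9% to 62.8%) and 26.1% (15.5% to 44.3%). Of the 40 ischemic values of the 8 transcripts, 14 (35.0%) were below 0.001 FPKM, and of the 40 nonischemic values 0 were. Among the other 38 isoforms this was the case for 53 of 190 nonischemic values (27.9%) and 51 of 190 ischemic values (26.8%), and in loci with a single lncRNA for 0.559% and 0.950%. The study may have chosen the 8 on these libraries for being different between the sides, so the excess on one side is a description.

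Such values near 0 were not a sign that a transcript was weak throughout. A value below 0.001 FPKM in one library and of at least 1 FPKM in another was found for 5 of the 8, for 8 of the 33 other isoforms with a mean of at least 0.1 FPKM, for 28.5% of the 1297 such transcripts in other loci with several lncRNAs, and for 3.63% of the 358 lncRNAs alone in their locus. The median over transcripts of the SD of the log2 change among rats was 1.46 for the 8, 1.26 for the other isoforms, 1.25 in other loci with several transcripts and 0.61 for lncRNAs alone in their locus. The spread of the 33 other isoforms was therefore near that of isoforms elsewhere in the list. That of the 8 was higher, and 62.5% of them held such a pair of values, against 24.2% of the 33. The 8 may have been chosen on these libraries, so this is a description. Both sets had a wider spread than lncRNAs without an overlapping isoform.

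The PCR-tested transcript had the highest FPKM of its locus in 23 of 80 pairs of locus and library. These were 12 of 40 on the nonischemic and 11 of 40 on the ischemic side. By FPKM times exonic length it led in 25 of 80, and TCONS_00034914 in 3 libraries of each side, against 0 and 1 by FPKM. How often an isoform taken at random would lead was not computed, so nothing is read from these counts. Of the 46 isoforms, 33.0 ± 3.08 reached 0.1 FPKM on the nonischemic side (28 to 36) and 28.6 ± 2.97 on the ischemic side (24 to 32), fewer in 4 of 5 rats (exact permutation test, p = 0.1875). The sum over the 8 loci was 29.0 to 42.5 FPKM on the nonischemic side and 13.6 to 24.8 FPKM on the ischemic side. It was lower in 5 of 5 rats and was led by the chromosome 6 locus. The sum over all assembled lncRNAs was 5281.5 to 6179 FPKM on the nonischemic and 4402 to 5810 FPKM on the ischemic side. That wider sum was also lower on the ischemic side in each rat except P72, where it rose from 5281.5 to 5810 FPKM. The 8 may have been chosen on these libraries, so the fall of their loci is a description.

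Over all 46 transcripts, 41 had a mean of at least 0.1 FPKM and were tested, among them the 8 and 33 of the 38 other isoforms. Those called were TCONS_00113701, TCONS_00079019 and TCONS_00037730, each lower on the ischemic side (3 of 41, 7.32%, beside 7.71% over all transcripts). With one rat left out the count was 1 (P45), 0 (P52), 0 (P61), 1 (P71) and 2 (P72). None of these 3 was called without P45, P52, P61 or P71, where the single calls were TCONS_00092323 (without P45) and TCONS_00052245 (without P71). The median change of the 33 other isoforms was −0.45, with 21 lower and 12 higher. In the test of each transcript against its own locus 0 of 1566 transcripts passed in limma (0% in the whole fit, with 88 at an unadjusted p under 0.05, and 0 without moderation of the variance, with 90 at an unadjusted p under 0.05). The relative change was negative for 7 of the 8 and positive for 29 of the 38 other isoforms, which is partly fixed by the shares of a locus adding up to a whole. A missed threshold does not show that the shares were alike on both sides.

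A measure of the locus that depends little on how reads were divided among isoforms gave the 8 loci in the same order as the locus sums. The level over merged exons, the summed FPKM times length divided by the exonic bases of the locus, changed by 1.10 for the locus of TCONS_00012358 (adjusted p = 0.0623), −1.75 for TCONS_00052245 (0.0238), −1.13 for TCONS_00034914 (0.0975), −0.97 for TCONS_00056796 (0.143), −0.68 for TCONS_00092323 (0.0981), −0.64 for TCONS_00078206 (0.117), −0.46 for TCONS_00039914 (0.486) and −0.19 for TCONS_00113701 (0.633), all in limma. One of the 8 was called, beside 3.11% of the 676 loci. On this measure the sides did not overlap for the locus of TCONS_00012358, at 0.449 ± 0.145 and 1.10 ± 0.459, higher on the ischemic side. Nor did they for the loci of TCONS_00092323 and TCONS_00052245, both lower on the ischemic side. The share of all loci separated on this measure was not computed, so nothing is read from these separations. For the locus sums that share was 3.11% in the higher and 1.33% in the lower direction. On the locus sum the sides of TCONS_00012358 overlapped, with nonischemic values up to 0.817 and ischemic ones from 0.744 FPKM. The differences between PCR-tested transcript and merged locus were widest for TCONS_00078206 and TCONS_00113701, where the transcript changed by −2.67 and −1.96.

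**Figure D5:**
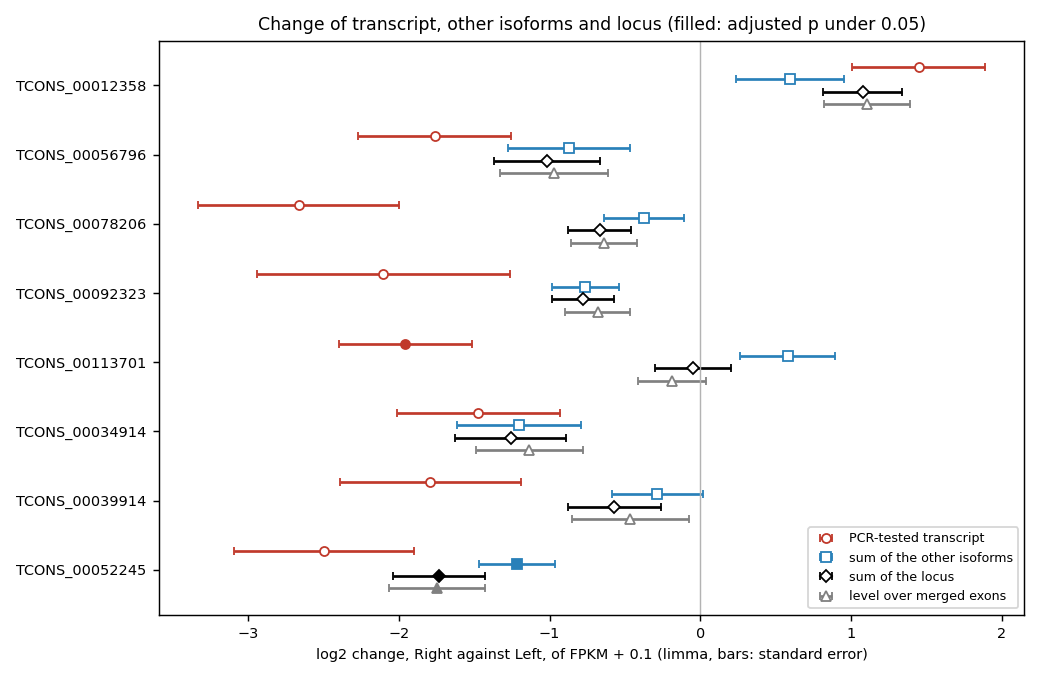
Log2 change of FPKM + 0.1, right (ischemic) against left (nonischemic), with its standard error from limma for the PCR-tested transcript (red circles), the sum of its other isoforms (blue squares), the locus sum (black diamonds) and the level over merged exons (grey triangles), 1 row per locus, filled where the adjusted p was under 0.05. The filled markers are the transcript TCONS_00113701 (−1.96) and the 3 sums of the TCONS_00052245 locus (−1.22 to −1.75), and the red markers have the widest bars.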

How the data were processed

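RNA was sequenced from the left and right brain tissue of 5 rats, 10 libraries in all. Reads were aligned by the authors to rn5 (TopHat), and transcripts were built on the Ensembl annotation (Cufflinks), compiled with Cuffcompare and kept as lncRNAs after filters on exons, length, known annotation, coding potential and protein similarity. They deposited FPKM per transcript and library, without pooling replicates, and the exons of the assembled lncRNAs. FPKM are not counts, so no count model was used, and depth was estimated only in relative terms.

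The 8 transcripts, the gene lists and the tests were chosen with earlier results of these data known. Loci joined transcripts with overlapping spans on one strand. The fits were made with limma 3.58.1 in R 4.3.3 (eBayes with a trend) on log2(FPKM + 0.1) with a mean of at least 0.1 FPKM: single transcripts (20936 features), locus sums (19916), sums of other isoforms (20801) and the ratio of transcript to locus (1566). Each used the animal as a block, since both libraries of a pair carry one animal's name. The deviations of both sides of one animal from the side means correlated by −0.13 to 0.18, against −0.0082 for different animals. P-values were Benjamini-Hochberg adjusted over each fit, which was tested on simulated data. Shares were compared with exact sign-flip permutation tests over all 32 sign patterns. Named other isoforms were, by rule, the most abundant of each locus, those with an adjusted p under 0.05 and those leading in a library. Others (TCONS_00056795, TCONS_00062272, TCONS_00078630, TCONS_00091083, TCONS_00094011 and TCONS_00092324) were chosen after their values were seen.

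Alternatives were other pseudocounts, filters and scalings, no moderation, no block and leaving out each animal. The depth covariate and the merged exons were added after seeing the data. Cell type markers and transcripts alike in pattern were not analysed here, since identifiers could not be matched to symbols, and no lncRNA sequence is given, as no rn5 genome was used here. Python 3.11.15, numpy 2.4.6, pandas 2.3.3, scipy 1.17.1 and matplotlib 3.10.9 were used for tables and figures.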

Additional observations from a re-analysis of the deposited data

Results flagged for a closer look

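In each group of 5 libraries the highest and lowest values were compared with the rest by Dixon's ratio of the gap to the range (critical value 0.71). Of 68 groups, 9 held such a library. The rate of 1 in 20 (3.4 groups) holds for normal values only. Many of these levels and shares lie near 0, so no excess is read from the count. On the ischemic side, P45 stood apart for TCONS_00092323, with 2.82 FPKM against at most 0.00801 in the other rats and a share of 22.1% of its locus against at most 0.106%. The share of TCONS_00056796 was 43.2% in the same library, against at most 10.4% in the others. On the nonischemic side, P45 had the lowest share of TCONS_00052245, 17.6%, where the others had 53.9% to 68.2%.

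The ischemic library of P52 held 0.113 FPKM of TCONS_00079019, with the others below 0.001, and 0.649 FPKM of TCONS_00040463, with the others at 0.156 to 0.218. The ischemic locus sum of TCONS_00113701 was 3.49 FPKM in P71, and 0.862 to 1.53 in the others. TCONS_00034913 reached 1.21 FPKM on the ischemic side of P72, and 0.206 to 0.427 in the others. The nonischemic locus sum of TCONS_00052245 was lowest in P61, at 2.18 FPKM, and 3.03 to 3.27 in the others.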

How the results depend on the processing

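Counts of calls moved with most settings. The depth of the libraries is known only in relative terms, the 5 pairs are few, and a level of one isoform rests partly on how Cufflinks divided shared reads. The cause of these moves was not tested. Of the 8 transcripts, 1 was called as reported, and 0 with a pseudocount of 0.01, without the filter on low values, with each library rescaled to one total, without moderation of the variance or with relative depth as a covariate. With a pseudocount of 1 there were 3, and leaving out one rat gave 0 to 1, namely TCONS_00092323 without P45, TCONS_00052245 without P71, TCONS_00113701 without P72 and none without P52 or P61. With no replicate block, 2 of the 8 were called (TCONS_00012358 and TCONS_00078206), 3 of the 8 locus sums and 1 sum of other isoforms, so leaving out the pairing by animal changed which transcripts and locus sums were called. Of the 41 transcripts of the 8 loci tested, 3 were called, against 1 with a pseudocount of 0.01, 5 with a pseudocount of 1, 1 without the filter, 1 rescaled, 1 without moderation, 0 with the depth covariate, 0 of 5 with a mean of at least 1 FPKM, 3 with no replicate block, and 0 to 2 with one rat left out. A mean of at least 1 FPKM left none of the 8 transcripts to test.

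Of the 8 locus sums, 1 was called, against 2 with a pseudocount of 1, 0 without moderation, 0 with the depth covariate and 0 to 2 with one rat left out. Of the 8 sums of other isoforms, 1 was called, against 0 of 7 with a mean of at least 1 FPKM, 0 without moderation, 0 with the depth covariate and 0 to 2 with one rat left out. The relative fit called 0 of the 8 under every setting run. The number of the 8 shares that moved the same way in every rat was 1, and 1 to 4 with one rat left out. These changes of direction occurred, none of them in a called result. The locus sum of TCONS_00113701 changed by 0.0072 when rescaled, and by −0.20 to 0.10 with one rat left out (above 0 without P61 or P72). With a pseudocount of 1 the change relative to the locus was −0.0063 for TCONS_00012358, 0.18 for TCONS_00056796, 0.28 for TCONS_00092323, 0.39 for TCONS_00034914 and 0.19 for TCONS_00052245. For TCONS_00034914 it was 1.02 with the depth covariate and −0.62 to 0.20 with one rat left out (above 0 without P45). The share difference of TCONS_00034914, −3.06 percentage points, was −9.92 to 2.31 with one rat left out (above 0 without P45). That of TCONS_00092323, −1.35, was 1.15 from summed FPKM and −6.39 to 1.18 with one rat left out (above 0 without P52 or P72). Of the other tested results of single transcripts or loci, 394 kept direction and side of the threshold, 11 passed it and 22 no longer did.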
